A study of Rattus norvegicus with 12 samples.

Results

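The endoplasmic reticulum chaperones and XBP1 targets described here are 10 genes: the chaperones Hspa5 and Hsp90b1, their partners Dnajb9 and Sdf2l1, the lectin chaperones Calr and Canx, the disulfide isomerases Pdia3 and Pdia4, the degradation factor Herpud1 and the transcription factor Xbp1. They were measured by 13 of the 31042 probe sets tested, which were those whose only gene symbol in the array annotation is 1 of these 10 names. Canx had 3 probe sets, Pdia3 had 2 and each of the other 8 genes had 1. In all, 14217 genes had a probe set of their own by the same rule. The samples were Colony cells and A16 cells of F111, a line of fibroblasts from Fischer rats, both cultured in DMEM with fetal calf serum. Colony cells came from NA16 cells, which had been kept off the plastic for 16 h and then in soft agar for 7 days. Once recovered from the agar, they were allowed a brief attachment to plastic and then collected. A16 cells had stayed adherent on plastic for 16 h. The length of time since plating, the surface, the passage through agar and the chromosomes of the cells differ together between the groups and cannot be told apart. For the chromosomes, the paper reports a translocation in a minority of A16 cells but in all cells from colonies. It also describes more of other chromosome abnormalities in colony cells. The part of gained, lost or rearranged chromosomes in the results below was not tested. Each group had 3 Affymetrix arrays: biological replicates 1 and 2 and an array labelled technical replicate 2. This makes 2 cultures per group (n = 2). The labels do not say which culture the technical array belongs to. Its log2 values were averaged with those of biological replicate 1, which is an assumption: over all probe sets the SD of its log2 difference was 0.225 from replicate 1 and 0.243 from replicate 2 in Colony, and 0.174 and 0.305 in A16. Among the labels of the second Colony culture, 1 names tumour formation and the rest name colonies. It was kept as Colony, and values without it are given beside some of the results. The labels call these biological replicates without saying how the cultures were kept apart, so the p-values measure only the spread between these samples.

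Proteins that will be secreted or sit in membranes fold in the endoplasmic reticulum (ER), where Hspa5 (BiP) and Hsp90b1 (Grp94) hold unfolded chains, Calr and Canx hold glycoproteins by their sugars, and disulfide isomerases join cysteines. When unfolded protein builds up, the sensors Ire1, Atf6 and Perk start the unfolded protein response. Ire1 splices the Xbp1 mRNA into the form that codes for the active factor, Atf6 is cut to release a factor, and Perk slows translation and raises Atf4. XBP1 and ATF6 bind the ER stress element (ERSE) in promoters of chaperone genes. Fibroblasts use this machinery heavily, since collagens and fibronectin pass through it.

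The promoters of these genes were searched on both strands for 3 motifs. These were the ERSE, which is CCAAT and CCACG with any 9 bases between them, the related ERSE-II, which is ATTGG and CCACG with any 1 base between them, and the core of the UPRE, an XBP1 site, TGACGTGG. The RefSeq table (build GRCr8) has windows from 250 bases before to 50 bases after the start for 9 of the 10 genes. An exact ERSE was found in 5 of these 9 windows, against 22 of all 33469 windows (0.0657%). ERSE-II was found in the window of Herpud1 and in 17 of all windows (0.0508%), and the UPRE core in 0 of the 9 and in 199 of all windows (0.595%). No match to the 3 motifs was found in the windows of Dnajb9, Sdf2l1 and Pdia4. The 10 genes were chosen as chaperones and XBP1 targets, so the shares of windows with a match are not independent of that choice. The matches, an ERSE in 5 genes and an ERSE-II in Herpud1, are printed below. Each is given 5′ to 3′ on the strand of its gene, with the matched letters in capitals.
Hspa5, chr3:38452953-38453011, plus strand: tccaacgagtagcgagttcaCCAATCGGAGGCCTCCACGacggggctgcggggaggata
Hsp90b1, chr7:23012431-23012489, minus strand: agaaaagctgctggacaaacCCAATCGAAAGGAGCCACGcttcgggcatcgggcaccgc
Hsp90b1, chr7:23012327-23012385, minus strand, match on the opposite strand: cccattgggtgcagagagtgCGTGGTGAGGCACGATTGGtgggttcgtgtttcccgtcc
Calr, chr19:40213117-40213173, plus strand, match on the opposite strand: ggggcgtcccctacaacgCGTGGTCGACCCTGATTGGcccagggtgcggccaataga
Canx, chr10:35158049-35158107, minus strand: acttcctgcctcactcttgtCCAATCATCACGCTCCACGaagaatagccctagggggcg
Xbp1, chr14:84604538-84604596, plus strand: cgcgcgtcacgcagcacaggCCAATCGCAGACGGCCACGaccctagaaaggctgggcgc
Herpud1, chr19:10614801-10614851, minus strand, ERSE-II: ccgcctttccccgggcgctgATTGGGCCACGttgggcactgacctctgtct
The first base of the ERSE lay 43 bases before the start in Hspa5 (-43) and 65 bases before it in Xbp1 (-65), while those of Calr and Canx lay farther out, at -232 and -230. Hsp90b1 had 2 copies, at -176 and -72 on opposite strands. No matches of different motifs overlapped in these genes. The starts used by the table for Canx and Herpud1 lie inside the spans that RefSeq gives for these genes. The position of -230 in Canx is thus counted from an internal start.

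Colony cells had 0 of the 13 probe sets called higher and 1, a probe set of Canx, called lower, where a call needs a Benjamini-Hochberg adjusted p under 0.05 from limma and a fold change (FC) over 2. Over all probe sets 4.0% were called higher and 5.81% lower, 9.81% together. By the adjusted p alone 0 of the 13 were higher and 3 lower, where the background was 11.4% higher and 11.3% lower, 22.7% together. The shares for both directions together and that of the intervals below are close to those of all probe sets. Those counts do not set the 10 genes apart. By direction the counts leaned lower, and this lean was not tested. Among the 10868 probe sets at least as bright as the dimmest of the 13, 13.8% were called and 34.3% passed by the adjusted p alone. For 11 of the 13 the 95% confidence interval of the log2 FC lay wholly within a 2-fold change either way, as it did for 79.1% of all probe sets. The limits of these 11 ran from -0.83 to 0.68. The median log2 FC of the 13 was -0.22, with 9 values below 0 and 4 above, while the median over all probe sets was 0.05. Every Colony array lay below every A16 array in 7 of the 13 probe sets (20.5% of all probe sets do so) and above in 1 (25.4% of all do so). With PLIER values as well, 5 lay below and 1 above. These are values of RNA from whole cultures, in which fewer cells of a kind and less RNA per cell cannot be told apart.

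**Figure D1:**
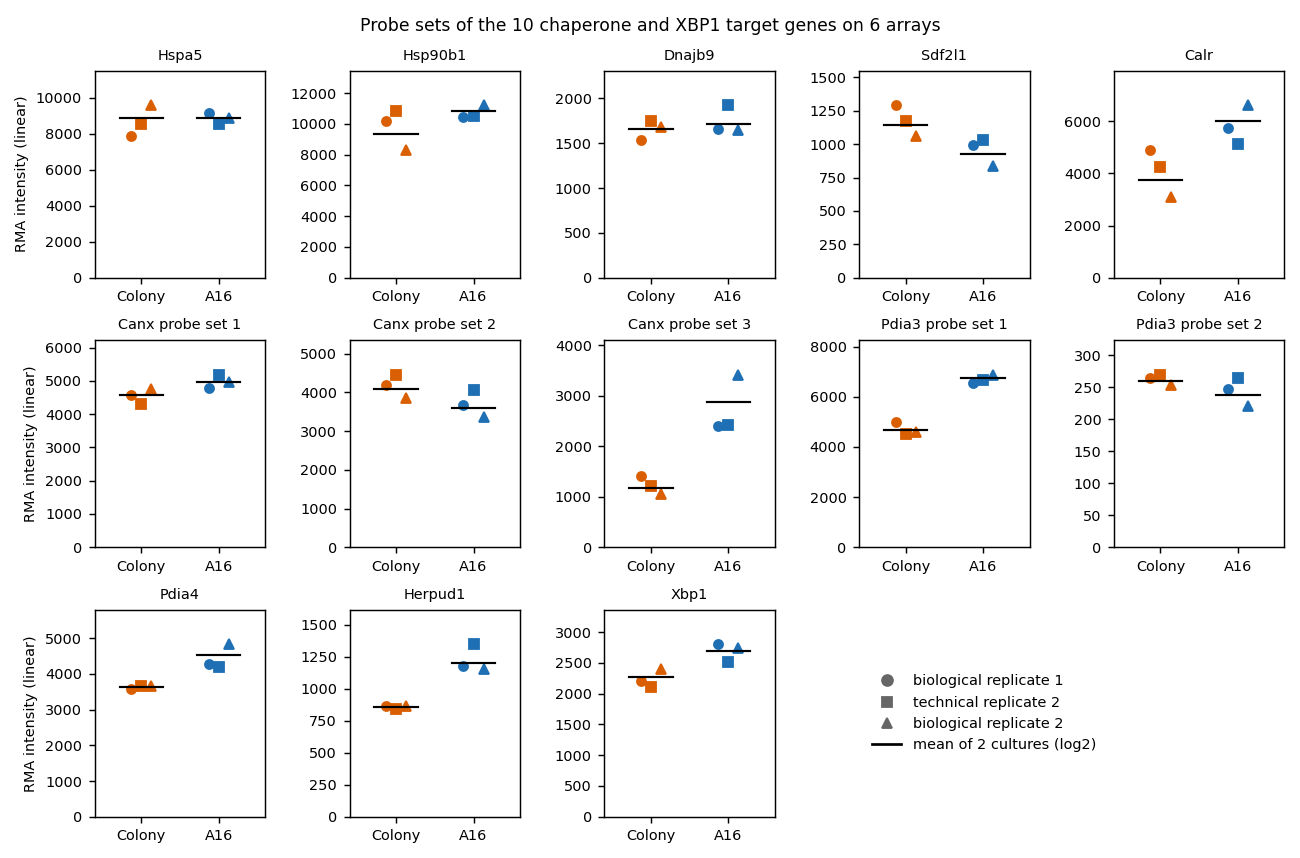
RMA intensity (linear scale, from 0) of each of the 13 probe sets on the 3 Colony arrays (orange, left) and the 3 A16 arrays (blue, right); symbols give the replicate and bars the mean of the 2 cultures taken on the log2 scale. The groups are apart for the third probe set of Canx (1047 to 1401 in Colony and 2408 to 3414 in A16) and overlap for Hspa5.

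The median RMA intensity of the arrays, which RMA has already normalised, was between 97.6 and 100.9, on the linear scale on which the authors deposited it. The probe sets of the 10 genes lay between the 63.3 and the 99.5 percentile of A16 values, and the highest value in the series, 25775, is above all of them. Detection calls were not used here, and 6 arrays limit the precision. Of 12 fibroblast markers, 5 were called lower and 0 higher in Colony cells, and their summed RMA intensity was 59168 to 63899 on Colony arrays and 83743 to 95135 on A16 arrays. Vim and S100a4 were bright in both groups, whereas Dcn and Lum lay under the array median on every array. Markers of macrophages and leukocytes summed to 1726 to 1818 in Colony and 1319 to 1510 in A16. Of the 10, 1, Csf1r, was called higher, and 7 lay under the array median on all arrays. Csf1r had 538.4 to 823.9 in Colony and 34.4 to 44.9 in A16 cells. Cd14 went the other way without a call, with 533.7 to 697.3 in Colony and 891.3 to 1019.7 in A16 cells (log2 FC -0.56, adjusted p = 0.0366). For epithelium the sums were 3212 to 3958 in Colony and 966 to 1070 in A16, with 1 of 8, Krt8, called higher and 7 under the median. All 7 measured mast cell and 5 measured plasma and B cell markers lay under the median on all arrays, as did 5 of 6 endothelial ones. The part of these markers in the results below was not tested.

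Hspa5 (probe set 1370283_at, chr3:38453016-38457475 in GRCr8), the Hsp70 of the ER that also keeps the stress sensors silent, had RMA intensities of 7890, 8537 and 9583 on the Colony arrays of biological replicate 1, technical replicate 2 and biological replicate 2. On the A16 arrays, in the same order, they were 9140, 8545 and 8892. The A16 values lay within the range of the Colony values. The mean log2 intensity was 13.11 ± 0.16 in Colony and 13.11 ± 0.01 in A16 cells (SD, n = 2 cultures), a log2 FC of 0.00 with a standard error of 0.14 and a 95% interval of -0.33 to 0.33 (adjusted p = 0.998). After the log2 values of each gene were centred on its own A16 mean, the 5 of 13982 genes whose values over the 6 arrays differed least from those of Hspa5 were Dcaf12l1, Gal, Tlk2, Ttc34 and Klhl42 (root mean square difference 0.02 to 0.03). Their mean log2 intensities were 4.82 to 10.34, far below that of Hspa5, so what they share with it is a profile that was nearly flat over the arrays.

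Hsp90b1 (probe set 1388331_at, chr7:22997962-23012293), the Hsp90 of the ER that folds integrins and Toll-like receptors, had 10217, 10820 and 8314 in Colony and 10485, 10497 and 11225 in A16 cells. The Colony array of biological replicate 2 was the lowest of the 6, and technical replicate 2 lay among the A16 values. The log2 FC was -0.21 (95% interval -0.59 to 0.16, adjusted p = 0.406), and -0.05 without Colony replicate 2. Dnajb9 (probe set 1387116_at, chr6:66997842-67007371), also ERdj4, a J-domain partner of Hspa5 whose transcription XBP1 raises, had 1533, 1751 and 1686 in Colony and 1654, 1924 and 1645 in A16 cells. These groups overlapped, with a log2 FC of -0.04 (95% interval -0.35 to 0.27, adjusted p = 0.863). Sdf2l1 (probe set 1373043_at, chr11:97376878-97379120), an ER protein that works in a complex with J-domain partners of Hspa5, was the only gene of the 10 whose Colony arrays all lay above the A16 arrays, in RMA and PLIER alike. Its intensities were 1292, 1174 and 1060 in Colony and 997, 1032 and 839.9 in A16 cells. The log2 FC of 0.31 did not pass (standard error 0.16, 95% interval -0.07 to 0.68, adjusted p = 0.227).

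Calr (probe set 1398750_at, chr19:40213367-40218262), the soluble lectin calreticulin that also stores calcium, had 4886, 4232 and 3084 in Colony cells and 5758, 5115 and 6622 in A16 cells. All Colony arrays were lower, but in PLIER values the groups overlapped, with 5187, 4227 and 2985 in Colony and 5313, 5070 and 6169 in A16. Its log2 FC of -0.68 was the lowest of the 10 genes by their brightest probe set, but the cultures were far apart (standard error 0.21, 95% interval -1.18 to -0.17, adjusted p = 0.0636). Without Colony replicate 2 it was -0.40 and without Colony replicate 1 it was -0.96, so the size depends on which Colony culture is taken. Over 15 other limma fits the adjusted p ran between 0.0146 and 0.245 and was under the threshold in 5.

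Canx encodes calnexin (chr10:35124941-35157954), the membrane-bound counterpart of calreticulin, and its 3 probe sets disagreed. The brightest, 1388442_at, had 4563, 4302 and 4745 in Colony and 4786, 5186 and 4969 in A16 cells, a log2 FC of -0.12 (95% interval -0.42 to 0.19, adjusted p = 0.588). The second, 1371686_at, had 4188, 4460 and 3864 in Colony and 3679, 4051 and 3374 in A16 cells, a log2 FC of 0.18 (95% interval -0.16 to 0.52, adjusted p = 0.446). The third, 1371687_at, had 1401, 1221 and 1047 in Colony cells and 2408, 2412 and 3414 in A16 cells. Every Colony array of the third probe set was lower than every A16 array in RMA and in PLIER, and its level fell in Colony cells, by a log2 FC of -1.29, or 2.45-fold (standard error 0.20, 95% interval -1.78 to -0.81, adjusted p = 0.00530). It was called lower in each of 15 other limma fits, those that leave out a culture included, with log2 FC values of -1.04 to -1.55. The log2 ratio of the third to the brightest probe set was -1.70, -1.82 and -2.18 on the Colony arrays and -0.99, -1.10 and -0.54 on the A16 arrays. The log2 FC values of the third and the brightest thus differed by -1.18. An exact two-sided permutation test over the 2 cultures per group gave p = 0.333. That is the smallest p this design allows, so the test cannot decide whether the 2 probe sets differ. Which transcripts each of the probe sets reads was not examined here, so a fall of Canx as a gene is not shown.

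Pdia3 (chr3:128841781-128865733), the isomerase ERp57 that works bound to calnexin and calreticulin, had 4994, 4532 and 4593 in Colony and 6567, 6675 and 6883 in A16 cells by its brighter probe set, 1398788_at. The 2 groups were well apart, and the values within each group were close. This probe set was lower in Colony cells by the adjusted p but stayed under the fold threshold, with a log2 FC of -0.53, or 1.44-fold (standard error 0.13, 95% interval -0.83 to -0.23, adjusted p = 0.0253). With PLIER as log2(value + 16) it was -0.34 (adjusted p = 0.129), and with any 1 culture left out the adjusted p was 0.062 to 0.11. The dimmer probe set, 1392920_at, went the other way without passing, with 265.3, 269.9 and 253.2 in Colony and 247.5, 264.7 and 220.5 in A16 cells and a log2 FC of 0.13 (adjusted p = 0.578). Pdia4 (probe set 1370007_at, chr4:78134144-78153191), the isomerase ERp72 and a target of the unfolded protein response, had 3570, 3658 and 3654 in Colony and 4262, 4180 and 4828 in A16 cells. Its groups did not overlap, and the log2 FC of -0.31 did not pass (standard error 0.14, 95% interval -0.64 to 0.01, adjusted p = 0.160).

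Herpud1 (probe set 1367741_at, chr19:10604360-10624168), a membrane protein that helps to assemble the complex for ER-associated degradation, was the other gene that was lower by the adjusted p alone. It had 868.6, 845.0 and 861.9 in Colony cells, which is a narrow range, and 1174, 1348 and 1151 in A16 cells. The log2 FC was -0.49, or 1.40-fold lower (standard error 0.13, 95% interval -0.80 to -0.18, adjusted p = 0.0377). With PLIER as log2(value + 16) it was -0.39 (adjusted p = 0.0779), and with any 1 culture left out the adjusted p was 0.0789 to 0.151. Xbp1 itself (probe set 1371249_at, chr14:84604623-84609707) had 2198, 2100 and 2403 in Colony and 2802, 2518 and 2736 in A16 cells. All Colony arrays lay below all A16 arrays, by a small step, and the log2 FC of -0.25 did not pass (standard error 0.13, 95% interval -0.56 to 0.07, adjusted p = 0.253). The array gives the amount of Xbp1 mRNA, and its splicing was not measured.

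**Figure D2:**
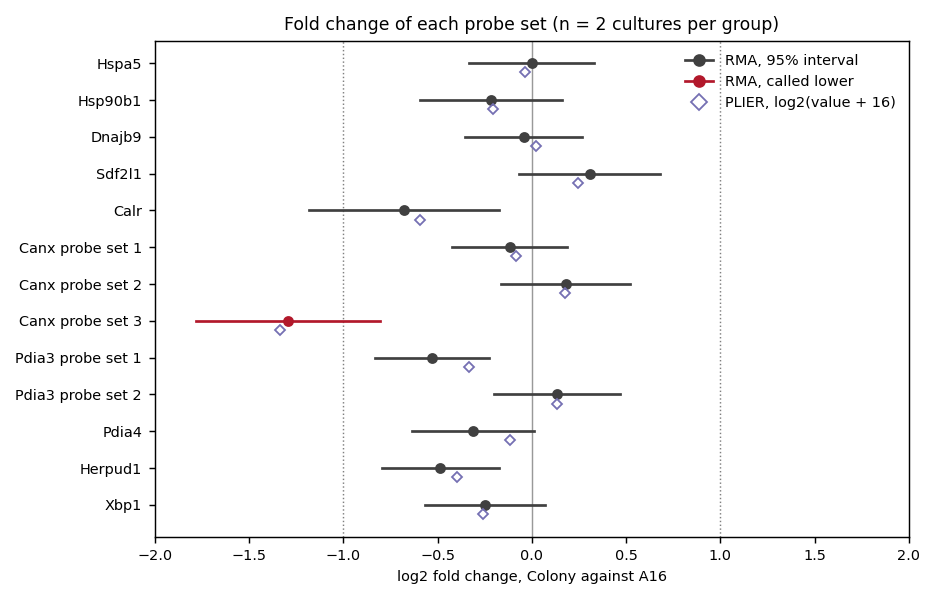
Log2 fold change of each of the 13 probe sets, Colony against A16 (n = 2 cultures per group), with the 95% confidence interval of the RMA fit as a line and the PLIER value as an open diamond; dotted lines mark a 2-fold change. The third probe set of Canx (red, -1.29) was the only one called, and 11 intervals lie between the dotted lines.

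Other genes of the ER folding and secretion pathway were set beside these 10, each by its brightest probe set. Of 130 measured genes out of 137 listed, 13 were called lower and 2 higher in Colony cells, against 4.75% lower and 4.36% higher (9.12% together) over all 14217 genes. By the adjusted p alone 42 were lower and 6 higher, where the background was 10.8% lower and 12.9% higher (23.7% together). Counts by the adjusted p alone without Colony replicate 2 have no share over all genes beside them and are not given. The median log2 FC of the 130 was -0.26, close to the -0.23 of the 10 genes, and 0.05 over all genes. The 10 genes are in no list. The shares over all genes include dim ones. Among the 10868 probe sets at least as bright as the dimmest of the 13, 13.8% were called in either direction. By the adjusted p alone 34.3% of these passed. The brightness of the listed genes was not matched.

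Among the sensors, Atf6 gave -0.61 as its log2 FC (standard error 0.19, adjusted p = 0.0590) and -0.75 by a dimmer probe set (adjusted p = 0.0228). In PLIER values the dimmer probe set had -2.28 and the brighter one -0.59. Without A16 replicate 1 or 2, the log2 FC of the brighter one was -0.41 or -0.81. Without Colony replicate 1 or 2, it was -0.76 or -0.45. For Eif2ak3, which encodes Perk, the value was -0.18 (adjusted p = 0.406). Ern1, which encodes Ire1, was not measured by a probe set with 1 symbol. Creb3l1, a membrane-bound factor of the Atf6 type known for driving collagen production, was the 1 of 9 sensors and transducers that was called, and it fell. It had 260.5, 244.2 and 189.5 in Colony and 909.7, 785.5 and 814.3 in A16 cells, with no overlap (log2 FC -1.92, standard error 0.17, adjusted p = 0.000488).

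In the Perk arm 3 of 9 genes fell and 0 rose by the call, and by the adjusted p alone 5 were lower and 1 higher. Trib3, a pseudokinase that Atf4 and Ddit3 induce, had 232.7, 224.3 and 216.0 in Colony and 982.1, 1030 and 998.0 in A16 cells (log2 FC -2.17, standard error 0.13, adjusted p = 9.0e-05). Atf3, a stress-induced factor of the same family as Atf4, had a log2 FC of -1.82 (adjusted p = 0.000193). Atf4 itself, with 3405, 2906 and 2965 in Colony and 4758, 4812 and 6313 in A16 cells, had a log2 FC of -0.85 and stayed under the fold threshold (adjusted p = 0.0124). Without Colony replicate 2 its adjusted p was 0.0526, and without A16 replicate 1 it was called lower, at -1.05. Chac1, an enzyme that breaks down glutathione and a target of Atf4, was the 1 gene that was higher by the adjusted p alone. Its intensities were 3832, 3251 and 2367 in Colony and 1604, 1416 and 1885 in A16 cells, with no overlap (log2 FC 0.78, standard error 0.22, adjusted p = 0.0451). Ddit3 (Chop), the factor tied to cell death under ER stress, had 989.1, 1051 and 1058 in Colony and 936.1, 932.9 and 914.6 in A16 cells, a log2 FC of 0.17 (95% interval -0.13 to 0.47, adjusted p = 0.418). The paper lists Ddit3 as over 2-fold higher in colony cells on its arrays, and as higher by quantitative PCR. The value here does not reach that fold.

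Within the folding machinery of Hspa5, 1 of 12 genes was called. Hyou1 (Grp170), the large Hsp70 relative that swaps the nucleotide of Hspa5, had 82.5, 81.5 and 82.6 in Colony and 213.1, 210.9 and 342.3 in A16 cells and fell 3.27-fold (log2 FC -1.71, standard error 0.23, adjusted p = 0.00258). The Colony values of Hyou1 lay under the array median, and its log2 FC was -2.36 with PLIER as log2(value + 16), so the size of the fall is uncertain. The dimmer probe set of Hyou1 had a log2 FC of -1.07 (adjusted p = 0.0512). The change of Hyou1 differed from that of Hspa5 by -1.71 on the log2 scale. An exact two-sided permutation test over the cultures gave p = 0.333, the smallest possible, so it cannot decide whether the changes differ. The promoter of Hyou1 is shown for comparison with those above, since it holds ERSE-II copies like Herpud1 and a UPRE core that overlaps the first of them.
Hyou1, chr8:53602671-53602724, plus strand, UPRE core and ERSE-II on the opposite strand, overlapping: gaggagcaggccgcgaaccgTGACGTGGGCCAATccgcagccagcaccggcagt
Hyou1, chr8:53602774-53602824, plus strand, ERSE-II on the opposite strand: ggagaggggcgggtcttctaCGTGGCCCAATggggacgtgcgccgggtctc
A second window of Hyou1 held no match.

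Of 14 disulfide isomerases and oxidases 1 fell and 1 rose. Pdia5, an isomerase of the same family as Pdia3 and Pdia4, had 334.3, 355.9 and 398.5 in Colony and 1121, 930.6 and 1000.4 in A16 cells (log2 FC -1.45, standard error 0.14, adjusted p = 0.000677). Ero1b, an oxidase that recharges the isomerases, had 334.8, 351.8 and 316.1 in Colony and 161.2, 182.2 and 148.4 in A16 cells (log2 FC 1.05, adjusted p = 0.00280), and its dimmer probe set had 0.14 (adjusted p = 0.579). Of 10 prolyl isomerases and collagen chaperones 4 fell and 1 rose. Serpinh1 (Hsp47), the chaperone for procollagen, had 2624, 2523 and 2047 in Colony and 7660, 7597 and 10691 in A16 cells, a 3.94-fold fall (log2 FC -1.98, standard error 0.20, adjusted p = 0.000945). The dimmer probe set of Serpinh1 was not called, with a log2 FC of -0.69 in RMA and -1.60 in PLIER values. Fkbp11, a secretory prolyl isomerase, fell 3.72-fold (adjusted p = 0.000157). Fkbp2, a small ER prolyl isomerase, rose by 1.04 on the log2 scale (adjusted p = 0.00330), whereas its other probe sets had 0.41 and 0.61 without passing. The rises of Ero1b and Fkbp2 were close to the threshold: Ero1b was not called without A16 replicate 2 (0.94), without Colony replicate 1 (0.99) or with either form of PLIER (0.901 and 0.997). Fkbp2 was not called without A16 replicate 2 (0.90) or with other uses of the technical arrays (0.91 to 0.98).

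Of 22 translocon and signal peptidase genes 2 fell. For Sec61a1, the channel itself, the log2 FC was -1.01 (adjusted p = 0.00273) and -1.30 by another probe set (adjusted p = 0.00404), while 1 more had 0.05. Sec61a1 lay at the fold threshold and was not called without Colony replicate 2 (-0.92). It was also not called with other uses of the technical arrays (-0.98 to -0.88), with the culture as a random block (-0.99) or with either centring of the arrays (-0.984 and -0.996). Srp72, a protein of the signal recognition particle, had -1.80 by its brightest probe set (adjusted p = 0.000627), but its other probe sets had -0.10 and 0.22 without passing. Of 19 genes of ER to Golgi transport and KDEL retrieval 1 fell, Lman1 (ERGIC-53), a lectin that carries glycoproteins out of the ER (log2 FC -1.59, standard error 0.18, adjusted p = 0.00138). Of 19 genes of ER-associated degradation and 16 of N-glycan addition and glycoprotein folding, 0 were called in either direction, and by the adjusted p alone 6 and 4 of them were lower and 1 and 0 higher.

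**Figure D3:**
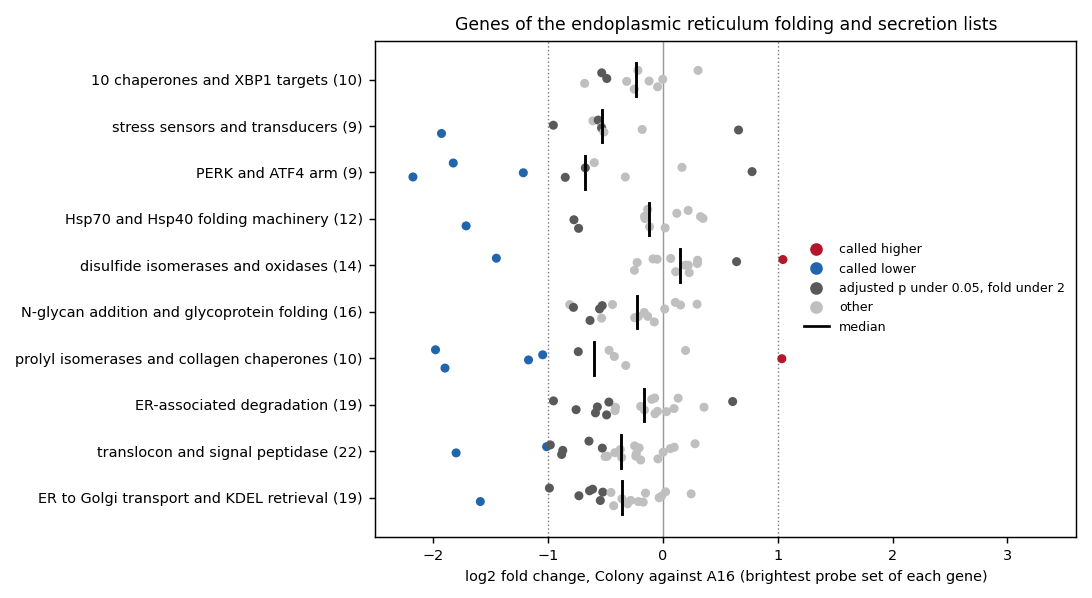
Log2 fold change of single genes, Colony against A16, on the horizontal axis, for the 10 chaperones and XBP1 targets in the top row and the 9 pathway lists below it (number of measured genes in brackets; bars are medians, dotted lines a 2-fold change). Blue and red points passed the test and the fold threshold, 13 lower and 2 higher outside the top row, where 0 of 10 passed.

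The promoter motifs gave another way to choose genes, without use of the arrays. An ERSE or ERSE-II was found for 38 genes in the RefSeq table, of which 28 were measured, 22 of them outside the 10. Among these 22, 2 were called lower and 1 higher, against 4.75% and 4.36% of all genes. By the adjusted p alone 5 were lower and 3 higher, against 10.8% and 12.9% of all genes. Their median log2 FC was -0.15, from -1.71 for Hyou1 to 1.05 for Ero1b. The second that fell was Zfp57, a zinc finger protein known from imprinting (log2 FC -1.70, adjusted p = 0.000274). For Dnajc3 and Dnajb11, J-domain partners of Hspa5, the log2 FC values were -0.16 (95% interval -0.51 to 0.19) and -0.15 (95% interval -0.49 to 0.18), and for Creld2, an ER protein induced by stress, 0.35 (95% interval 0.01 to 0.69).

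**Figure D4:**
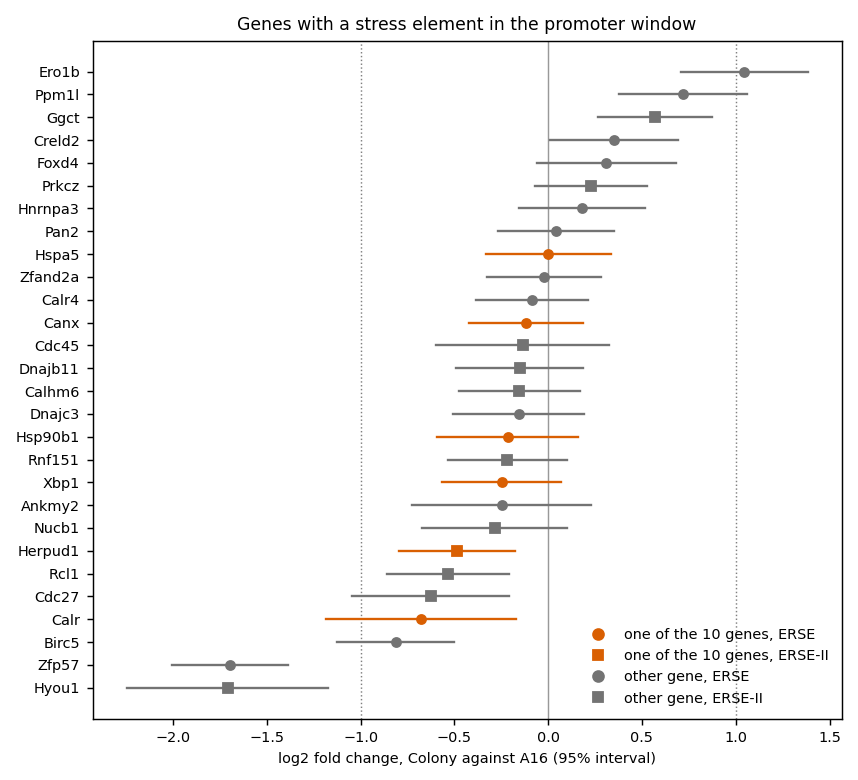
Log2 fold change with 95% confidence interval, Colony against A16, of the 28 measured genes with an ERSE (circles) or ERSE-II (squares) in the promoter window, in order of size; orange marks those among the 10 chaperones and XBP1 targets. The orange values lie between -0.68 (Calr) and 0.00 (Hspa5), while the others run from -1.71 (Hyou1) to 1.05 (Ero1b).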

How the data were processed

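RNA of Colony and A16 cells was hybridised by the authors to 6 rat Affymetrix arrays. Avadis software gave 2 summaries per array, RMA and PLIER, which the authors deposited as linear intensity (versions: not given in the sources used here). Values by RMA were put on the log2 scale with no pseudocount. The table has 31099 probe sets, and the 31042 that are no controls were tested, dim ones included, with limma 3.58.1 (lmFit, eBayes; R 4.3.3) and p-values adjusted by Benjamini-Hochberg over all of them. Of these, 20826 have 1 gene symbol, 436 several and 9780 none. Symbols were updated through the RefSeq gene table of GRCr8 for 20758 probe sets by gene identifier and for 2 by accession. The 10 genes, the lists and the tests were chosen with earlier results of these data known. The text names all 10 genes, Atf6, Eif2ak3, Atf4, Ddit3 and Ern1, and up to 2 genes called in each direction per list, by size. Chac1, Zfp57, Dnajc3, Dnajb11 and Creld2 were named after their values were seen. Promoters were searched with Python 3.11.15. The fit was tested on simulated data. Alternatives were PLIER as log2(value + 16) and log2(value), other uses of the technical arrays, a block, a filter, scalings, the methods' t-test and leaving out cultures.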

Additional observations from a re-analysis of the deposited data

How the results depend on the processing

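Under the alternatives, 0 member probe sets were called higher in any fit, and 1 was called lower in each limma fit with the fold threshold. Of the log2 FC values of the 13 probe sets under alternatives, 233 kept their direction and their call (adjusted p and fold together) and 13 changed sign, all of Hspa5 and Dnajb9, whose main values were near 0. The remaining 1, the third probe set of Canx by the methods' t-test on cultures, had an adjusted p of 0.226. By the adjusted p alone, Calr, the brighter probe set of Pdia3 and Herpud1 changed sides: it was under 0.05 in 5, 8 and 7 of 15 limma alternatives, against 0.0636, 0.0253 and 0.0377 in the main values. Hspa5 had -0.0368 and -0.0369 with the 2 forms of PLIER, -0.0352 with 6 arrays as separate samples (limma and the methods' t-test), -0.0794 with technical arrays averaged with replicate 2, -0.0521 without technical arrays and -0.0181 with the culture as a random block; leaving out a culture gave -0.11 to 0.11. Dnajb9 had 0.0203 and 0.0205 with the 2 forms of PLIER, and -0.10 to 0.0148 when a culture was left out. By the mean over a gene's probe sets, and by the brightest probe set of each, 0 member genes were called lower. Without the fold threshold, 3545 probe sets were higher and 3511 lower, with 3 member probe sets lower and 6 pathway genes higher and 42 lower. With the second Colony culture left out, an alternative added after seeing the data, the pathway genes lower without the fold threshold were 24. The methods' t-test on cultures gave 0 calls after adjustment in every count, and 1070 probe sets higher and 1313 lower before it. Pathway genes called higher numbered 1 with PLIER in both forms, with 6 arrays as separate samples, without technical arrays and by the methods' t-test on 6 arrays (adjusted or not), and 0 by the mean over probe sets; leaving out a culture gave 0 to 3 higher and 14 to 17 lower. The biological replicate number as a replicate block gave 1254 probe sets higher and 1867 lower and the same counts for members and pathway genes, but Herpud1 then had an adjusted p of 0.0627. Deviations of same-numbered cultures correlated at -0.15; the crossed pairing, added after seeing the data, gave 1256 higher and 1879 lower. A group with 1 culture left is assumed to vary like the other group.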
